A study of Mus musculus with 10 samples.

Results

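The genes described here are type I interferon response genes: a module of 37 mouse genes, of which 30 were measured by probe sets of their own, 41 probe sets in all, among 12393 genes with 20380 such probe sets on the array. Members were found by the gene symbol that the platform annotation gives each probe set, an older or newer symbol of the same gene included. Isg15, Ifi205 and Trex1 were covered only by probe sets shared with other genes, so no value is given for them. Oas1g, Ddx58, Xaf1 and Ifi44 were matched to no probe set and are not analysed here. All 30 measured members passed the filter on low signals described with the processing, as did 7474 genes in all. The rule uses gene symbols and no measured value, but the list itself was chosen with earlier results of these data known. The shares of all genes given below are therefore a background and not an independent test of the list.

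RNA was taken from mouse dendritic cells grown from bone marrow for 7 to 10 days in medium with supernatant of B16 tumour cells producing GM-CSF, and used when over 90% of the cells carried CD11c. Donor mice were 6 to 8 weeks old, either Cd14-/- on C57BL/6 or C57BL/6, here called CD14-deficient and wild type. In each genotype 2 plated samples received 1 µg/ml of smooth LPS together with 50 nM thapsigargin, 2 received 1 µg/ml of LPS alone, each harvested after 48 or 60 h, and 1 was left unstimulated and harvested after 24 h. That makes 10 arrays, 5 per genotype and 1 per condition. There was no arm with thapsigargin alone, and neither the number of mice or marrow cultures behind the samples nor any pooling is stated in the sources used here. GM-CSF cultures of this kind hold macrophage-like cells beside dendritic cells. The series was made to look for apoptosis genes controlled by NFAT. CD14 hands LPS to the TLR4 complex and is needed for its uptake with TLR4, and thapsigargin stops the pump that returns calcium to the endoplasmic reticulum, so that cytosolic calcium rises.

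From endosomes, TLR4 signals through the adaptor TRIF to the transcription factor IRF3, which switches on the gene for interferon beta. Secreted interferon binds the receptor IFNAR1 and IFNAR2, whose kinases JAK1 and TYK2 activate STAT proteins. STAT2 and IRF9 are parts of the complex ISGF3, which binds interferon-stimulated response elements in front of the genes described here. Interferon also induces IRF7, which amplifies interferon production. Among the genes described here are many effectors that block steps of viral replication. In dendritic cells the response also feeds chemokine release and T cell recruitment.

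Promoter windows were searched for the response element. RefSeq windows of 300 bases (250 before and 50 after an annotated start, GRCm38.p6, read in the direction of transcription) were at hand for 20 of the 30 members. The core of the element, GAAA, any 2 bases and GAAA, searched on both strands, stood in the windows of 11 of the 20 (55%) and in those of 1079 of all 27025 genes with a window (3.99%). Among the 14 members with a window that fell in CD14-deficient LPS cells it was present in 8, and among the 6 that did not pass in 3. The motif TTCNNNGAA, which STAT dimers bind and whose last letters can be the first of that core, was found for 7 of the 20 (35%) against 9.55% of all genes. The first 4 windows below are shown because their genes had the largest differences under LPS among members with a match, which is in capitals whichever strand it reads on. The last is that of Cmpk2, which differed most of all members and holds no match, as was also the case for Ms4a4c, Ifit2 and Isg20, the others of the 5 members with a window and the largest differences beside Ifit3.
Ifit3 (chr19:34583279-34583578, plus strand): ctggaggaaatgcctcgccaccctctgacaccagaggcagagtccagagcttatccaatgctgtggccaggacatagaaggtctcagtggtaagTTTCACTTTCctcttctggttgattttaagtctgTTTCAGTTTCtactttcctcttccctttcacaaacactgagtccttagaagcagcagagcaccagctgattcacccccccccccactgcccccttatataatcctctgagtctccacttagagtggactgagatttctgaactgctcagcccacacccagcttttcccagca
Rsad2 (chr12:26456403-26456702, minus strand): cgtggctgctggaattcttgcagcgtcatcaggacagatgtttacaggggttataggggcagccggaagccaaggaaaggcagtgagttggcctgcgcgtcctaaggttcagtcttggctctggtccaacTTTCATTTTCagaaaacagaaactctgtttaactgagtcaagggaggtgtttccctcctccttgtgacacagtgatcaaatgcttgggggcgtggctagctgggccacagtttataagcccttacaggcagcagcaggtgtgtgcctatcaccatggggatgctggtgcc
Ifit1 (chr19:34640639-34640938, plus strand): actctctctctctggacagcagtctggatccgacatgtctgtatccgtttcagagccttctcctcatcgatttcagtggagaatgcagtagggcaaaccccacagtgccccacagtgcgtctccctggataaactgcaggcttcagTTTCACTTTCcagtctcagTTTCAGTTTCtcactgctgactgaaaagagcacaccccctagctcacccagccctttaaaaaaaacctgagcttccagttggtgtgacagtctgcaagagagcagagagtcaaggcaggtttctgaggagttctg
Oas3 (chr5:120777610-120777909, minus strand): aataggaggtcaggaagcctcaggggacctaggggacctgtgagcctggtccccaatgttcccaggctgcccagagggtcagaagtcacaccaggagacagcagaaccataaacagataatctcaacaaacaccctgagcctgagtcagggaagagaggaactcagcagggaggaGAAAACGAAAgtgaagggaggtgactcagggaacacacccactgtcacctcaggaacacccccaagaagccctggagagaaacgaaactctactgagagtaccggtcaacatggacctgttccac
Cmpk2 (chr12:26468965-26469264, plus strand): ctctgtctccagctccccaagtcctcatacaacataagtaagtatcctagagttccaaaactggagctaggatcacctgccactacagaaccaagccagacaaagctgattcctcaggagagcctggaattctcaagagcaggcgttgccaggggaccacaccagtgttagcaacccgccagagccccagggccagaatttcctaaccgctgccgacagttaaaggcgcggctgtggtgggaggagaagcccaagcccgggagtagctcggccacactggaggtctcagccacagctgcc
Counted from the first base of each match, Ifit3 had its copies 156 and 122 bases upstream of the start and Ifit1 104 and 85 bases upstream. The single copies of Rsad2 and Oas3 began 120 and 75 bases upstream. A match describes letters and not a bound site, and its lack in the Cmpk2 window says only that these letters are not there. In the RefSeq gene table Rsad2 and Cmpk2 have 0 coding genes between them on chromosome 12, as do Ifit2 and Ifit3 on chromosome 19, and Oas2 and Oas3, and Oasl1 and Oasl2, on chromosome 5.

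Values below are MAS5 signals scaled to a common trimmed mean, a linear array intensity with no unit, and signals of different genes are not set against each other. Pairs of values are 48 h first and 60 h second. Cd14 itself lay between 1.85 and 7.35 on the 5 CD14-deficient arrays, under the floor of 13.4, and between 1499 and 17729 on the 5 wild-type arrays. Of 9 dendritic cell markers all were measured, with a summed signal of 50791 to 69328 on the CD14-deficient arrays and 41184 to 55479 on the wild-type arrays. Cd74, H2-Aa and H2-Ab1 made up most of that sum, and other markers of the list were less even. Itgax gave 892 and 6941 in CD14-deficient LPS cells against 2921 and 1002 in wild-type LPS cells. In the same order Flt3 gave 1149 and 334 against 84.7 and 65.8, and Ccr7 16168 and 7190 against 3531 and 6408. The recorded RNA integrity number ran from 8.4 to 10 over the arrays and was 10 for the CD14-deficient LPS array at 48 h. That array stood apart in other ways: it had the lowest cRNA yield, 15 µg against 19 to 53.1 µg, and 18S control signals of 114 to 385. The wild-type LPS array at 60 h came next with 217 to 685, against 1426 to 12656 on the other 8. Between 48 and 60 h, 1297 genes differed 2-fold in CD14-deficient LPS cells and at most 491 in any other condition. Several marker sums differed on that array. Summed over 9 macrophage markers the signal was 9787 at 48 h and 28357 at 60 h in CD14-deficient LPS cells, against 32964 and 26667 in wild-type LPS cells. For the 4 measured markers of plasmacytoid dendritic cells, the professional producers of type I interferon, it was 1445 and 752 in CD14-deficient LPS cells, against 391 and 643 in wild-type LPS cells, with Ccr9 and Klk1 under the filter signal of 99.2 on all arrays. Tcf4 made up most of it, with 1262 and 661 against 298 and 585. In the same order, 5 measured T and NK cell markers summed to 589 and 308 against 99.7 and 130, with Ncr1 under the floor and Cd2, Cd3e and Cd3g under the filter signal on all arrays, so that Klrd1 alone gave 541 and 267 against 50.6 and 92.9. The 4 B cell markers summed to 521 and 236 against 74.7 and 140, with Cd79a and Pax5 under the filter signal on all arrays. The 6 neutrophil markers summed to 8423 and 8415 against 10369 and 12215, with Ltf under that signal throughout, and 5 stromal markers to 429 and 643 against 1106 and 2885, with 3 collagen genes under it. Most of the neutrophil sum was Lcn2, with 6533 and 6172 against 8424 and 10463, while Camp was higher, with 345 and 356 against 118 and 122. Of the stromal markers Dcn gave 89.2 and 416 against 921 and 2707, and Lum 261 and 143 against 132 and 145. The part of any of these in the results was not tested, and in such bulk RNA fewer responding cells and less RNA per cell cannot be told apart.

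Without CD14, the interferon response genes were low in LPS-treated dendritic cells. Of the 30 members 19 fell relative to wild-type LPS cells, 0 rose and 11 did not pass (limma, adjusted p below 0.05 over 7474 genes). Of all genes tested 2.61% fell and 2.57% rose. The median log2 difference, CD14-deficient minus wild type, was -1.79 over the members and 0.08 over all genes. Both CD14-deficient LPS arrays lay below both wild-type LPS arrays for 27 members, against 20.8% of all genes, above both for Mx1 (27.5% of all genes), and Eif2ak2 and Ifi35 overlapped. At both times 19 members were at least 2-fold lower, against 2.19% of all genes. The error behind these p-values is what a shared 48 to 60 h shift leaves over in the 4 stimulated conditions, with 1 array at each time, so they measure the spread between these arrays, which may be technical. The count was 0 without either wild-type LPS array or any 1 of the 4 thapsigargin arrays, 22 without the 48 h array of CD14-deficient LPS cells and 25 without their 60 h array (17.8% and 44.3% of all genes passed there, in either direction), while the median stayed between -2.05 and -1.39. With no filter on low signals, over 12393 genes, the count was 0. Without the 2 arrays of lowest 18S signal, 1 CD14-deficient LPS array at 60 h faced 1 wild-type LPS array at 48 h. The median was then -1.565, and genotype and harvest time are hard to tell apart with those single arrays.

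**Figure D1:**
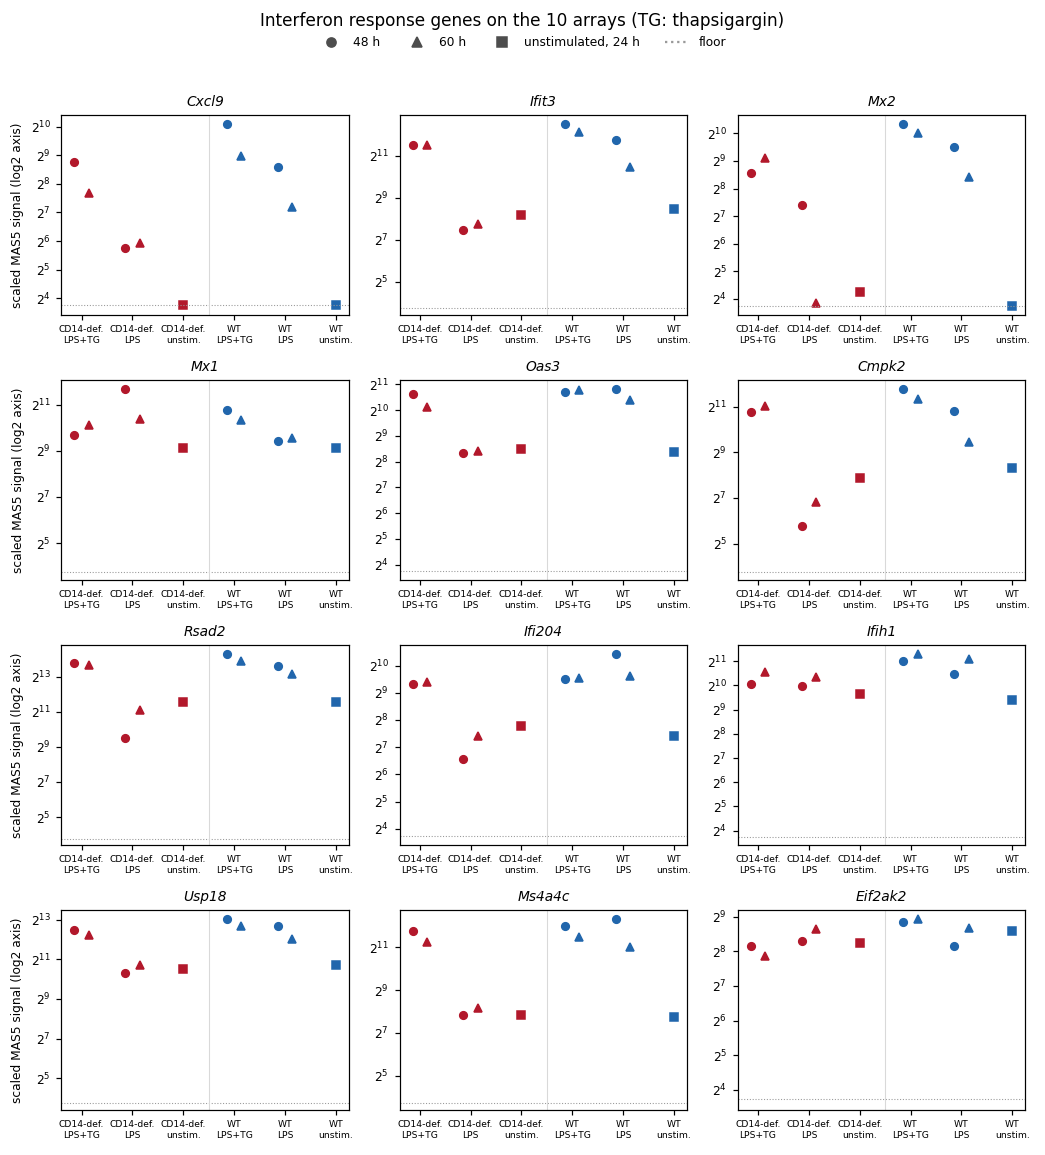
Scaled MAS5 signal (log2 axis) of 12 interferon response genes on each of the 10 arrays, CD14-deficient in red and wild type in blue, with circles for 48 h, triangles for 60 h, squares for unstimulated cells at 24 h and a dotted line at the floor of 13.4. For 10 of the genes, all but Mx1 and Eif2ak2, both CD14-deficient LPS points lie below both wild-type LPS points.

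Thapsigargin added to LPS raised the same module in CD14-deficient cells: 18 of the 30 members rose, 0 fell and 12 did not pass, where 3.43% of all genes rose and 3.2% fell. The median log2 difference, LPS with thapsigargin minus LPS, was 1.28 over the members and 0.00 over all genes. Both arrays with thapsigargin lay above both without it for 26 members (26.9% of all genes), below both for Mx1 and Eif2ak2 (26.1%), and Ifih1 and Dhx58 overlapped. At both times 15 members were at least 2-fold higher, against 2.77% of all genes. This comparison uses the same 2 CD14-deficient LPS arrays as the one between genotypes, so a low value there lowers one difference and raises the other, and the values of each are given side by side below. The count was 0 without any 1 of the 4 thapsigargin arrays, 12 without either wild-type LPS array and 23 without the 48 h or without the 60 h array of CD14-deficient LPS cells, where 28.8% and 38.7% of all genes passed in either direction, with a median between 1.14 and 1.67. The count was 0 with no filter on low signals. Without the 2 arrays of lowest 18S signal the CD14-deficient LPS side was 1 array, at 60 h, and the median was 1.11.

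**Figure D2:**
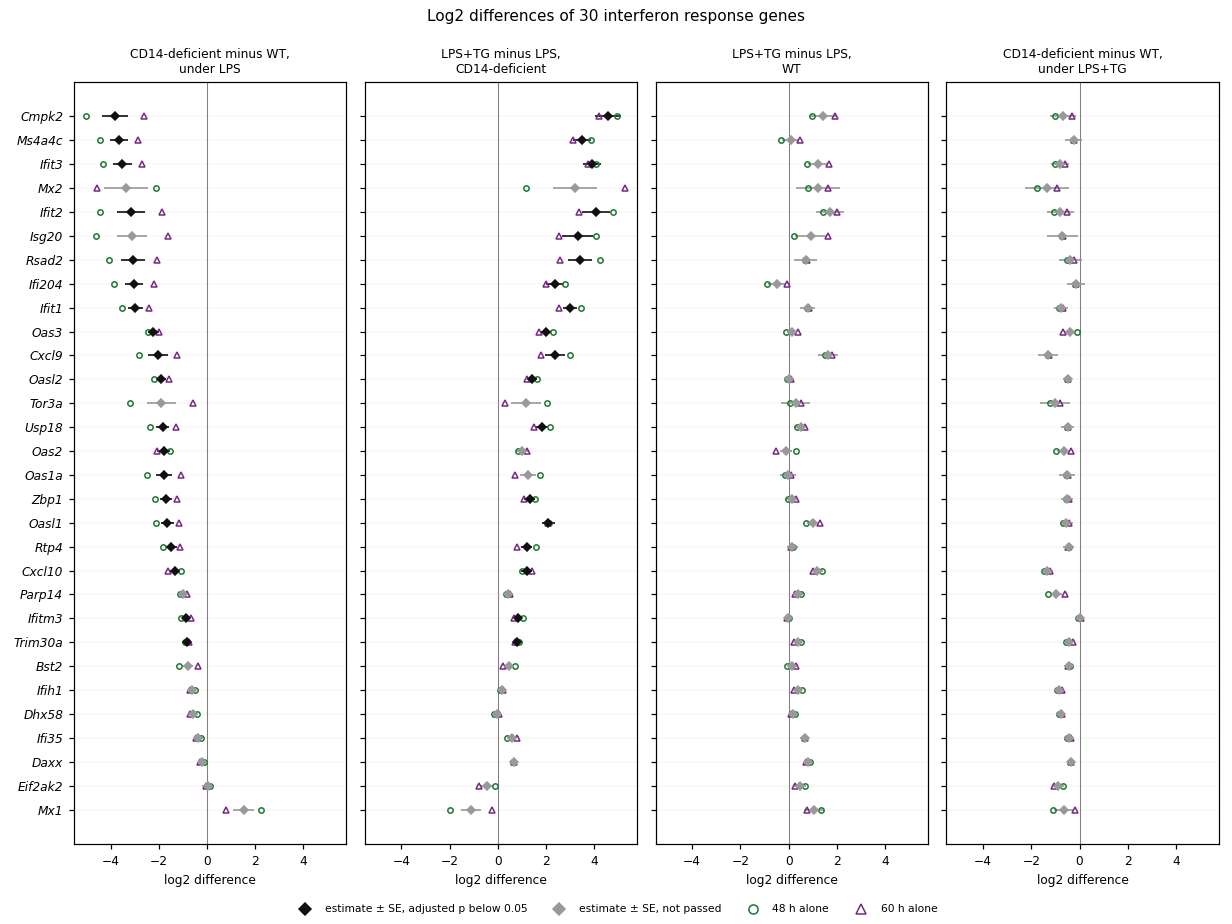
Log2 differences of the 30 measured members (rows) in 4 comparisons (TG, thapsigargin), with the limma estimate and its standard error as a diamond, black where the adjusted p is below 0.05, and the difference at 48 h (circle) and at 60 h (triangle) alone. Black diamonds are 19 in the first panel, all to the left of 0, and 18 in the second, all to the right, with none in the panels for wild-type cells and for thapsigargin-treated cells.

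**Figure D3:**
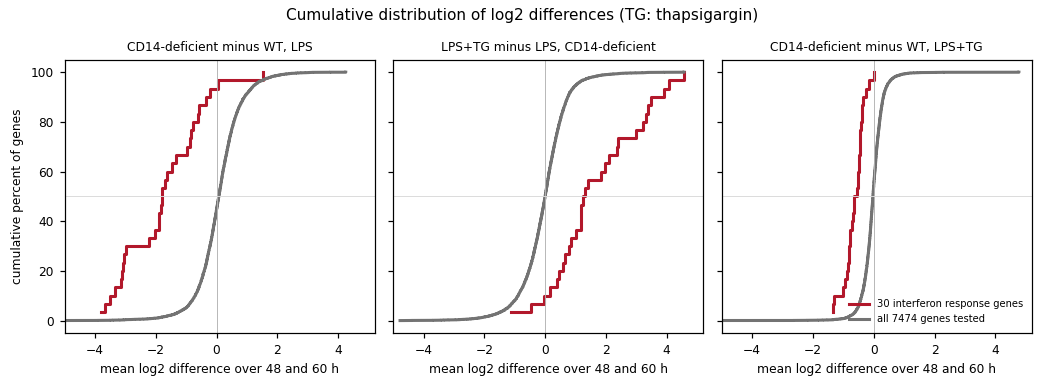
Cumulative percent of genes (y) by mean log2 difference over 48 and 60 h (x) for the 30 members (red) and all 7474 genes tested (grey). The members' medians are -1.79, 1.28 and -0.60 from left to right, against 0.08, 0.00 and -0.03 for all genes.

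Among the secreted signals, the chemokines Cxcl9 and Cxcl10, which attract T cells through the receptor CXCR3, fell in CD14-deficient LPS cells and rose with thapsigargin. Cxcl9 signals in CD14-deficient cells were 435 and 208 with LPS and thapsigargin, 54.7 and 60.7 with LPS, and 3.23 unstimulated. In wild-type cells Cxcl9 signals were 1091 and 499 with LPS and thapsigargin, 385 and 145 with LPS, and 2.71 unstimulated. The unstimulated values were under the floor, and the CD14-deficient LPS pair sat below the wild-type LPS pair at each time. The log2 difference for Cxcl9 was -2.04 ± 0.41 (adjusted p = 0.0495) between genotypes under LPS and 2.38 ± 0.41 (adjusted p = 0.0293) with thapsigargin in CD14-deficient cells. For Cxcl10, CD14-deficient cells gave 483 and 428 with LPS and thapsigargin, 244 and 162 with LPS alone, and 208 unstimulated. Wild-type Cxcl10 values were 1331 and 989 with LPS and thapsigargin, 509 and 497 with LPS alone, and 249 unstimulated. Here the CD14-deficient LPS signals lay around the unstimulated ones, and the CD14-deficient pair with thapsigargin was just below the wild-type LPS pair. Cxcl10 differed by -1.34 ± 0.21 (adjusted p = 0.0326) between genotypes and by 1.19 ± 0.21 (adjusted p = 0.0319) with thapsigargin.

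All 3 IFIT genes, whose proteins bind viral RNA and hold back its translation, fell without CD14 and rose with thapsigargin, and they were among the largest differences of the module. Ifit3 measured 2906 and 2949 in CD14-deficient cells with LPS and thapsigargin, 174 and 219 with LPS, and 295 without stimulation. Wild-type cells had Ifit3 at 5862 and 4469 with LPS and thapsigargin, 3491 and 1410 with LPS, and 351 without stimulation. The CD14-deficient LPS arrays were the 2 lowest of the 10, below even unstimulated cells. Ifit3 differed by -3.51 ± 0.39 (adjusted p = 0.0173) between genotypes under LPS and by 3.91 ± 0.39 (adjusted p = 0.0126) with thapsigargin. Ifit2 signals in CD14-deficient cells were 2609 and 2060 with LPS and thapsigargin, 95.4 and 201 with LPS, and 546 unstimulated. In wild-type cells Ifit2 signals were 5494 and 2978 with LPS and thapsigargin, 2039 and 742 with LPS, and 641 unstimulated. Again the CD14-deficient LPS pair was the lowest. For Ifit2 the difference between genotypes was -3.15 ± 0.57 (adjusted p = 0.0399), and with thapsigargin it was 4.07 ± 0.57 (adjusted p = 0.0195). For Ifit1, CD14-deficient cells gave 5076 and 3913 with LPS and thapsigargin, 470 and 676 with LPS alone, and 658 unstimulated. Wild-type Ifit1 values were 9191 and 6315 with LPS and thapsigargin, 5456 and 3572 with LPS alone, and 724 unstimulated. For Ifit1 the CD14-deficient LPS pair lay on either side of the unstimulated CD14-deficient value and below the unstimulated wild-type value. Every other stimulated array was at least 3572. The differences of Ifit1 were -2.97 ± 0.30 (adjusted p = 0.0165) between genotypes and 2.98 ± 0.30 (adjusted p = 0.0126) with thapsigargin.

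The Mx genes, GTPases that trap viral ribonucleoproteins, had differences of opposite sign, and neither passed the test. Mx2 measured 379 and 551 in CD14-deficient cells with LPS and thapsigargin, 169 and 14.4 with LPS, and 18.8 without stimulation. Wild-type cells had Mx2 at 1294 and 1044 with LPS and thapsigargin, 733 and 341 with LPS, and 9.22 without stimulation. With LPS alone the CD14-deficient Mx2 signals shifted by -3.56 on the log2 scale between 48 and 60 h, the widest shift of any member, and the 60 h value was near the floor. Mx2 differed by -3.34 ± 0.91 (adjusted p = 0.0859) between genotypes and by 3.21 ± 0.91 (adjusted p = 0.0865) with thapsigargin. Mx1 signals in CD14-deficient cells were 813 and 1116 with LPS and thapsigargin, 3241 and 1309 with LPS, and 556 unstimulated. In wild-type cells Mx1 signals were 1740 and 1272 with LPS and thapsigargin, 693 and 750 with LPS, and 556 unstimulated. Mx1 is the exception of the module: it was highest on the 2 CD14-deficient LPS arrays among CD14-deficient cells, and its largest value of all was on the 48 h array that stood apart. The Mx1 difference was 1.51 ± 0.42 (adjusted p = 0.0873) between genotypes, the positive sign meaning higher without CD14, and -1.11 ± 0.42 (adjusted p = 0.147) with thapsigargin. Dropping the 48 h array of CD14-deficient LPS cells gave 0.84 between genotypes. Dropping their 60 h array, which leaves only the 48 h array that stood apart, gave 2.19. As background, C57BL/6 and most inbred mouse strains carry a defective Mx1 gene.

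The OAS family senses double-stranded RNA. Oas1a, Oas2 and Oas3 belong to the branch that makes the messenger activating RNase L, and Oasl1 and Oasl2 are related proteins. All 5 measured members fell in CD14-deficient LPS cells, and Oas3, Oasl1 and Oasl2 rose with thapsigargin. For Oas3, CD14-deficient cells gave 1562 and 1099 with LPS and thapsigargin, 324 and 340 with LPS alone, and 357 unstimulated. Wild-type Oas3 values were 1678 and 1753 with LPS and thapsigargin, 1793 and 1344 with LPS alone, and 328 unstimulated. Only the CD14-deficient LPS pair stayed at the unstimulated level among stimulated arrays. Oas3 differed by -2.23 ± 0.22 (adjusted p = 0.0165) between genotypes and by 1.98 ± 0.22 (adjusted p = 0.0155) with thapsigargin. Oasl2 measured 2736 and 2727 in CD14-deficient cells with LPS and thapsigargin, 876 and 1193 with LPS, and 576 without stimulation. Wild-type cells had Oasl2 at 3883 and 3807 with LPS and thapsigargin, 4076 and 3524 with LPS, and 798 without stimulation. For Oasl2 the CD14-deficient LPS pair was above unstimulated cells of both genotypes and below every other stimulated array. Its differences were -1.89 ± 0.20 (adjusted p = 0.0169) between genotypes and 1.42 ± 0.20 (adjusted p = 0.0195) with thapsigargin. Oas2 signals in CD14-deficient cells were 295 and 428 with LPS and thapsigargin, 163 and 187 with LPS, and 183 unstimulated. In wild-type cells Oas2 signals were 576 and 548 with LPS and thapsigargin, 472 and 787 with LPS, and 240 unstimulated. The wild-type LPS value at 60 h was the highest of the 10 for Oas2. Oas2 differed by -1.80 ± 0.25 (adjusted p = 0.0278) between genotypes, and its difference with thapsigargin, 1.02 ± 0.25 (adjusted p = 0.0679), did not pass. For Oas1a, CD14-deficient cells gave 3714 and 3636 with LPS and thapsigargin, 1093 and 2225 with LPS alone, and 2341 unstimulated. Wild-type Oas1a values were 5483 and 5122 with LPS and thapsigargin, 6067 and 4726 with LPS alone, and 2337 unstimulated. The 48 h CD14-deficient LPS value was lowest and the 60 h value close to unstimulated cells. Oas1a differed by -1.78 ± 0.33 (adjusted p = 0.0431) between genotypes, and with thapsigargin by 1.24 ± 0.33 (adjusted p = 0.0783), which did not pass, and the first was -1.19 without the 48 h array of CD14-deficient LPS cells. Oasl1, a brake on IRF7 translation in mice, had 372 and 335 in CD14-deficient LPS cells and 1598 and 760 in wild-type LPS cells, and differed by -1.64 ± 0.27 (adjusted p = 0.0331) between genotypes and by 2.10 ± 0.27 (adjusted p = 0.0178) with thapsigargin.

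Of 7 other antiviral effectors, 4 fell without CD14 (Cmpk2, Rsad2, Zbp1 and Ifitm3) and 5 rose with thapsigargin (Cmpk2, Rsad2, Zbp1, Ifitm3 and Isg20). Cmpk2 measured 1712 and 2061 in CD14-deficient cells with LPS and thapsigargin, 55.4 and 113 with LPS, and 237 without stimulation. Wild-type cells had Cmpk2 at 3465 and 2573 with LPS and thapsigargin, 1777 and 689 with LPS, and 315 without stimulation. The nucleotide kinase Cmpk2 had its 2 lowest signals on the CD14-deficient LPS arrays, under both unstimulated ones. Cmpk2 differed by -3.81 ± 0.54 (adjusted p = 0.0278) between genotypes, the largest difference of the 30, and by 4.57 ± 0.54 (adjusted p = 0.016) with thapsigargin. Rsad2 signals in CD14-deficient cells were 13735 and 12989 with LPS and thapsigargin, 735 and 2176 with LPS, and 2954 unstimulated. In wild-type cells Rsad2 signals were 19677 and 15418 with LPS and thapsigargin, 12464 and 9159 with LPS, and 2966 unstimulated. Rsad2 encodes viperin, which makes a chain-terminating nucleotide, and its CD14-deficient LPS pair was likewise below both unstimulated arrays. Its differences were -3.08 ± 0.49 (adjusted p = 0.0314) between genotypes and 3.40 ± 0.49 (adjusted p = 0.0202) with thapsigargin. The other probe sets of Rsad2 gave log2 differences between genotypes of -6.26 and -4.66 at 48 h and -3.28 and -3.41 at 60 h, larger than those of the set used. For Isg20, CD14-deficient cells gave 1670 and 916 with LPS and thapsigargin, 98.8 and 156 with LPS alone, and 145 unstimulated. Wild-type Isg20 values were 2794 and 1471 with LPS and thapsigargin, 2418 and 480 with LPS alone, and 130 unstimulated. Isg20, an exonuclease for single-stranded RNA, was lower at 60 h than at 48 h in wild-type LPS cells. The difference of Isg20 between genotypes, -3.12 ± 0.64 (adjusted p = 0.0504), was just outside the threshold, and that with thapsigargin, 3.31 ± 0.64 (adjusted p = 0.039), passed. Zbp1 measured 1919 and 2083 in CD14-deficient cells with LPS and thapsigargin, 653 and 989 with LPS, and 448 without stimulation. Wild-type cells had Zbp1 at 2864 and 2826 with LPS and thapsigargin, 2908 and 2322 with LPS, and 587 without stimulation. Zbp1 senses Z-form nucleic acid and can trigger necroptosis, and its CD14-deficient LPS pair lay between unstimulated cells and all other stimulated arrays. Zbp1 differed by -1.69 ± 0.24 (adjusted p = 0.0282) between genotypes and by 1.31 ± 0.24 (adjusted p = 0.0345) with thapsigargin. Ifitm3, which blocks virus fusion in endosomes, had 6881 and 9061 in CD14-deficient LPS cells and 14549 and 14420 in wild-type LPS cells, and differed by -0.88 ± 0.15 (adjusted p = 0.0384) between genotypes and by 0.84 ± 0.15 (adjusted p = 0.0325) with thapsigargin. Bst2, the tether of budding virions, had 3958 and 4396 in CD14-deficient LPS cells and 8926 and 5706 in wild-type LPS cells, a difference of -0.78 ± 0.20 (adjusted p = 0.0831) that did not pass. Eif2ak2 signals in CD14-deficient cells were 284 and 231 with LPS and thapsigargin, 312 and 397 with LPS, and 302 unstimulated. In wild-type cells Eif2ak2 signals were 458 and 488 with LPS and thapsigargin, 283 and 412 with LPS, and 384 unstimulated. Eif2ak2 encodes PKR, the kinase that stops translation on double-stranded RNA, and its genotypes overlapped under LPS. The difference of Eif2ak2 was 0.04 ± 0.26 (adjusted p = 0.929) between genotypes and -0.46 ± 0.26 (adjusted p = 0.291) with thapsigargin, the first turning to -0.033 after quantile normalization.

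Of the 3 measured sensors of foreign nucleic acid, Ifi204 fell without CD14 and rose with thapsigargin, whereas Ifih1 and Dhx58 did not pass in either comparison. For Ifi204, CD14-deficient cells gave 642 and 672 with LPS and thapsigargin, 94.0 and 170 with LPS alone, and 221 unstimulated. Wild-type Ifi204 values were 727 and 738 with LPS and thapsigargin, 1365 and 786 with LPS alone, and 169 unstimulated. Ifi204, an interferon-inducible sensor of DNA, had its lowest value on the 48 h CD14-deficient LPS array, and its wild-type values were no higher with thapsigargin than without. Ifi204 differed by -3.04 ± 0.38 (adjusted p = 0.0205) between genotypes and by 2.38 ± 0.38 (adjusted p = 0.0246) with thapsigargin. Ifih1 measured 1071 and 1507 in CD14-deficient cells with LPS and thapsigargin, 995 and 1314 with LPS, and 800 without stimulation. Wild-type cells had Ifih1 at 2067 and 2492 with LPS and thapsigargin, 1408 and 2160 with LPS, and 669 without stimulation. The signals of Ifih1, which encodes the RNA sensor MDA5, were higher at 60 than at 48 h in every condition, and thapsigargin left the CD14-deficient values overlapping. Ifih1 differed by -0.61 ± 0.17 (adjusted p = 0.0859) between genotypes and by 0.15 ± 0.17 (adjusted p = 0.582) with thapsigargin. Dhx58 signals in CD14-deficient cells were 333 and 469 with LPS and thapsigargin, 369 and 454 with LPS, and 321 unstimulated. In wild-type cells Dhx58 signals were 593 and 786 with LPS and thapsigargin, 490 and 744 with LPS, and 303 unstimulated. Dhx58 encodes LGP2, a partner of MDA5, and its signals too were higher at 60 than at 48 h in every condition. Its differences were -0.56 ± 0.18 (adjusted p = 0.119) between genotypes and -0.05 ± 0.18 (adjusted p = 0.885) with thapsigargin.

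Among 5 regulators, Usp18 and Trim30a fell without CD14 and rose with thapsigargin, and Parp14, Ifi35 and Daxx did not pass in either comparison. For Usp18, CD14-deficient cells gave 5746 and 4741 with LPS and thapsigargin, 1268 and 1701 with LPS alone, and 1482 unstimulated. Wild-type Usp18 values were 8250 and 6589 with LPS and thapsigargin, 6557 and 4179 with LPS alone, and 1705 unstimulated. Usp18 removes ISG15 from proteins and restrains signalling at IFNAR2, and its CD14-deficient LPS pair was at the level of unstimulated cells. Usp18 differed by -1.83 ± 0.26 (adjusted p = 0.0282) between genotypes and by 1.83 ± 0.26 (adjusted p = 0.0202) with thapsigargin. Parp14 measured 1121 and 1400 in CD14-deficient cells with LPS and thapsigargin, 893 and 1000 with LPS, and 660 without stimulation. Wild-type cells had Parp14 at 2750 and 2149 with LPS and thapsigargin, 1934 and 1786 with LPS, and 934 without stimulation. Parp14, an ADP-ribosyltransferase, was highest on the wild-type arrays with thapsigargin. Parp14 differed by -0.98 ± 0.21 (adjusted p = 0.0578) between genotypes and by 0.41 ± 0.21 (adjusted p = 0.261) with thapsigargin. Trim30a signals in CD14-deficient cells were 3657 and 3158 with LPS and thapsigargin, 1998 and 1939 with LPS, and 1641 unstimulated. In wild-type cells Trim30a signals were 5428 and 3848 with LPS and thapsigargin, 3781 and 3264 with LPS, and 1909 unstimulated. The CD14-deficient LPS values of Trim30a, a dampener of TLR signalling in mice, were close together and near the unstimulated ones. Trim30a differed by -0.84 ± 0.16 (adjusted p = 0.0457) between genotypes and by 0.79 ± 0.16 (adjusted p = 0.0463) with thapsigargin. A second Trim30a probe set gave log2 differences between genotypes of 0.06 at 48 h and -0.85 at 60 h. With thapsigargin in CD14-deficient cells that set gave -0.17 at 48 h and 0.73 at 60 h, so the sets disagree at 48 h in both comparisons. For Ifi35, CD14-deficient cells gave 1342 and 1106 with LPS and thapsigargin, 1046 and 641 with LPS alone, and 771 unstimulated. Wild-type Ifi35 values were 1933 and 1431 with LPS and thapsigargin, 1242 and 885 with LPS alone, and 781 unstimulated. Ifi35 is an interferon-induced leucine zipper protein, and its genotypes overlapped under LPS. Ifi35 differed by -0.36 ± 0.18 (adjusted p = 0.246) between genotypes and by 0.57 ± 0.18 (adjusted p = 0.103) with thapsigargin. Daxx, a histone chaperone and repressor, had 702 and 593 in CD14-deficient LPS cells and 767 and 728 in wild-type LPS cells, a difference of -0.21 ± 0.16 (adjusted p = 0.436).

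Of 3 less characterised genes, Ms4a4c and Rtp4 fell without CD14 and rose with thapsigargin. Ms4a4c measured 3400 and 2455 in CD14-deficient cells with LPS and thapsigargin, 232 and 285 with LPS, and 232 without stimulation. Wild-type cells had Ms4a4c at 4068 and 2860 with LPS and thapsigargin, 5033 and 2077 with LPS, and 212 without stimulation. The tetraspan gene Ms4a4c stayed at the unstimulated level in CD14-deficient LPS cells and was high on every other stimulated array. Ms4a4c differed by -3.65 ± 0.36 (adjusted p = 0.0165) between genotypes and by 3.49 ± 0.36 (adjusted p = 0.0126) with thapsigargin, and its second probe set gave -4.64 at 48 h and -3.38 at 60 h between genotypes. Rtp4 signals in CD14-deficient cells were 3999 and 3820 with LPS and thapsigargin, 1325 and 2213 with LPS, and 2253 unstimulated. In wild-type cells Rtp4 signals were 5393 and 5251 with LPS and thapsigargin, 4703 and 4846 with LPS, and 2506 unstimulated. Rtp4, a chaperone of receptor transport, had its lowest value on the 48 h CD14-deficient LPS array. Rtp4 differed by -1.48 ± 0.23 (adjusted p = 0.0309) between genotypes and by 1.19 ± 0.23 (adjusted p = 0.0408) with thapsigargin. For Tor3a, CD14-deficient cells gave 325 and 382 with LPS and thapsigargin, 78.8 and 311 with LPS alone, and 292 unstimulated. Wild-type Tor3a values were 767 and 662 with LPS and thapsigargin, 730 and 460 with LPS alone, and 358 unstimulated. For Tor3a, an ATPase of the endoplasmic reticulum, 1 array carried much of the difference, since the CD14-deficient LPS value at 60 h was near the unstimulated ones, and without the 48 h array the difference between genotypes was -0.79. Tor3a differed by -1.89 ± 0.61 (adjusted p = 0.117) between genotypes and by 1.17 ± 0.61 (adjusted p = 0.262) with thapsigargin, and neither passed. A second Tor3a probe set gave log2 differences between genotypes of -2.30 at 48 h and 0.29 at 60 h.

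In wild-type cells the module was higher with LPS than in the unstimulated sample. That sample is 1 array harvested at 24 h, so its own spread was not measured, and LPS and time in culture cannot be told apart in either genotype. Compared with it, 18 of 30 members rose, 0 fell and the median log2 difference was 1.50, where 7.69% of all genes rose and the median of all genes was -0.03. The count was lower without either wild-type LPS array, where 1 was left, with a median of 1.357 without the 48 h and 1.765 without the 60 h array. It was 8 or 9 without any 1 of the thapsigargin arrays. It was 25 without the 48 h or without the 60 h array of CD14-deficient LPS cells (43.8% and 43.9% of all genes in either direction). It was 9 with no filter on low signals. Without the 2 arrays of lowest 18S signal the wild-type LPS side was 1 array, at 48 h, and the median was 1.58. For Mx2 and Cxcl9 the unstimulated wild-type signal was under the floor, so wild-type LPS cells had at least 37.3-fold and at least 17.6-fold higher signals than that. Irrespective of calls, 29 members were higher on both wild-type LPS arrays than on the unstimulated one, against 39.9% of all genes. In CD14-deficient cells only Oasl1 rose with LPS (log2 difference 1.90 ± 0.33, adjusted p = 0.0393), against 2.17% of all genes, and the median was 0.09 against 0.03 for all genes. There 13 members were higher on both LPS arrays than unstimulated (37.2% of all genes) and 8 were lower on both (33.5%). Cxcl9 was at least 4.3-fold higher with LPS in CD14-deficient cells, a difference that did not pass (adjusted p = 0.0803). Oasl1 lost its call without a wild-type LPS array, without any 1 of the 4 thapsigargin arrays and without the term for harvest time. With the 48 h array of CD14-deficient LPS cells left out 5 members rose, where 15.9% of all genes passed in either direction, and with their 60 h array left out 6 rose and 8 fell, where 38.6% did. The difference between the genotypes in the LPS response was tested itself and passed for 0 of 7474 genes. At an unadjusted p below 0.05 were 20 members and 613 of all genes. Before stimulation the genotypes were close: over the 30 members the log2 difference of the single arrays, CD14-deficient minus wild type, ran from -0.50 to 0.49 with a median of -0.13 (1 array each, no test).

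In wild-type cells thapsigargin changed no member past the threshold. The median log2 difference, LPS with thapsigargin minus LPS, was 0.43, against 0.11 over all genes. At an unadjusted p below 0.05, 10 members were higher, a count given here without the share of all genes, so it does not set the module apart. Few genes passed at all in this comparison, 0.0134% higher and 0.0535% in either direction. The count of members was 8 without the 48 h or without the 60 h array of CD14-deficient LPS cells, where 7.84% and 7.95% of all genes passed in either direction, and 0 without any other array. Ifit2 had the largest value, 1.72 ± 0.57 (adjusted p = 0.416), followed by Cxcl9 with 1.64 ± 0.41 (adjusted p = 0.302). Ms4a4c differed by 0.08 with a 95% interval from -0.80 to 0.95, and Oas3 by 0.14 with an interval from -0.40 to 0.68. On the plain signals, 21 of the 30 members had their highest value of the 10 arrays on a wild-type array with thapsigargin, 18 of them at 48 h, against 17.2% and 7.65% of all genes. Whether thapsigargin acted more on the module without CD14 was tested as a difference of the differences, CD14-deficient minus wild type. It passed for 0 members and 0% of all 7474 genes, with a median of 1.11 over the members and -0.10 over all genes. It had an unadjusted p below 0.05 for 17 members above 0 and 2 below, and for 994 of all genes in either direction. It passed for 8 members with the 48 h array of CD14-deficient LPS cells left out (5.1% of all genes), and for 18 above 0 and 1 below with their 60 h array left out (25.4%).

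With thapsigargin present in both genotypes most members were again lower without CD14. The median log2 difference, CD14-deficient minus wild type, was -0.60 over the members and -0.03 over all genes, and 29 of 30 were below 0. Both CD14-deficient arrays with thapsigargin lay below both wild-type ones for 27 members, against 23% of all genes. At an unadjusted p below 0.05 (limma) 11 members were lower, a count given without the share of all genes, so it does not set the module apart. None of the members passed the threshold, and 0.0268% of all genes passed. It passed for 2 members without the 48 h or without the 60 h array of CD14-deficient LPS cells (0.642% and 0.749% of all genes). The estimate was nearer to 0 than under LPS alone for 25 members and further from it for 5 (Ifih1, Dhx58, Ifi35, Daxx and Eif2ak2). The same count was not made over all genes, so it does not set the module apart. The test of that change is the difference of the thapsigargin effects, which passed for 0 members. The widest were Mx2 with -1.35 ± 0.91 (adjusted p = 1), Cxcl10 with -1.33 ± 0.21 (adjusted p = 0.315) and Cxcl9 with -1.30 ± 0.41 (adjusted p = 1), and the closest was Ifitm3 with 0.00 ± 0.15 (adjusted p = 1).

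Set against wild-type cells with LPS alone, CD14-deficient cells with LPS and thapsigargin had member signals on either side. The median log2 difference was -0.14, against 0.08 over all genes, and single members ran from -0.78 for Oas2 to 0.92 for Ifit2. Both CD14-deficient arrays with thapsigargin were above both wild-type LPS arrays for 4 members (Ifit2, Mx1, Rsad2 and Daxx; 30.6% of all genes), below both for 11 (18.4%) and overlapped for 15. At an unadjusted p below 0.05 (limma) 4 members were lower and 1 higher, counts given without the share of all genes, so they do not set the module apart. No member passed the threshold, where 0.375% of all genes did. Leaving out the 48 h or the 60 h array of CD14-deficient LPS cells gave 3 members that passed, where 16.6% and 16.7% of all genes did. Ifit1 differed by 0.01 with a 95% interval from -0.72 to 0.74, and the interval of Usp18 ran from -0.64 to 0.63. For Mx2 the interval ran from -2.36 to 2.10, and for Dhx58 from -1.06 to -0.16.

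Between the harvest times most members were lower at 60 h in wild-type LPS cells and higher at 60 h in CD14-deficient LPS cells. From 48 to 60 h the median log2 shift of the members was -0.07 in CD14-deficient cells with thapsigargin, 0.34 in CD14-deficient cells with LPS alone, -0.32 in wild-type cells with thapsigargin and -0.43 in wild-type cells with LPS alone. Over all genes the medians were 0.04, -0.04, 0.06 and 0.09 in the same order. In wild-type LPS cells 24 of 30 members were lower at 60 h and 8 (26.7%) were at least 2-fold lower, against 1.73% of all genes. Isg20 shifted most there, by -2.33, then Ifit2 by -1.46 and Cxcl9 by -1.41. In CD14-deficient LPS cells 23 members were higher at 60 h, among them Tor3a by 1.98 and Rsad2 by 1.57, while Mx2 shifted by -3.56 and Mx1 by -1.31. There 5 members were at least 2-fold higher and 2 at least 2-fold lower, against 737 and 560 of all 7474 genes. For 21 of the 30 members the gap between the genotypes under LPS was further below 0 at 48 h than at 60 h, with medians of -2.13 and -1.25. The plain counts of 24, 23 and 21 members were not made over all genes. Each shift compares 1 array with 1 array and was not tested, and both arrays of low 18S signal take part in it, CD14-deficient LPS at 48 h and wild-type LPS at 60 h.

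**Figure D4:**
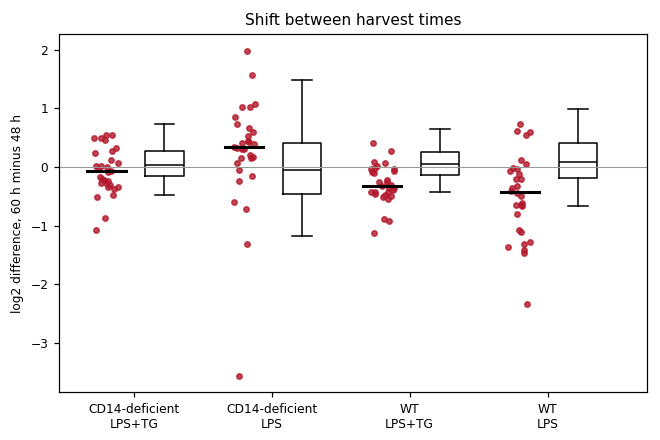
Log2 difference of 60 h minus 48 h in the 4 stimulated conditions, with a red point for each of the 30 members, a bar at their median and a box for all 7474 genes (quartiles, median and 5th to 95th percentile). Members' medians are -0.07, 0.34, -0.32 and -0.43 from left to right, and the lowest point is Mx2 in CD14-deficient LPS cells.

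Of the pathway that feeds these genes, the ligands were dim. Ifnb1, which encodes interferon beta, lay between 12.0 and 27.2 on all 10 arrays, and each of the 9 measured interferon genes was under the filter signal on all arrays and was not tested. Their summed signal ran from 51.5 to 88.0 on the CD14-deficient arrays and from 64.1 to 109 on the wild-type arrays. Of the 27 pathway genes that were tested, chosen from receptors, kinases, STATs, IRFs, the TRIF arm and inhibitors, 3 were higher and 1 lower in CD14-deficient than in wild-type LPS cells, with a median log2 difference of 0.11. Irf7 measured 5705 and 4929 in CD14-deficient cells with LPS and thapsigargin, 1241 and 1209 with LPS, and 386 without stimulation. Wild-type cells had Irf7 at 8284 and 6203 with LPS and thapsigargin, 7682 and 3897 with LPS, and 490 without stimulation. Irf7 thus followed the members: the CD14-deficient LPS pair was the lowest of the stimulated arrays. Irf7 differed by -2.16 ± 0.24 (adjusted p = 0.0173) between genotypes and by 2.11 ± 0.24 (adjusted p = 0.016) with thapsigargin. Unlike most members, Irf7 rose with LPS in CD14-deficient cells too (log2 difference 1.66 ± 0.30, adjusted p = 0.0439).

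The receptor, Stat2 and Irf9 differed less. Ifnar1 had 488 and 587 in CD14-deficient LPS cells and 625 and 706 in wild-type LPS cells, a difference of -0.31 ± 0.23 (adjusted p = 0.414). Ifnar2 had 1917 and 4353 in CD14-deficient LPS cells and 6153 and 4699 in wild-type LPS cells, -0.90 ± 0.42 (adjusted p = 0.223). Stat2 had 163 and 180 in CD14-deficient LPS cells and 384 and 254 in wild-type LPS cells, -0.87 ± 0.24 (adjusted p = 0.0886), and rose with thapsigargin in CD14-deficient cells by 1.14 ± 0.24 (adjusted p = 0.0498). Irf9 had 1101 and 701 in CD14-deficient LPS cells and 1032 and 1120 in wild-type LPS cells, -0.29 ± 0.26 (adjusted p = 0.498), so the genotypes overlapped. Irf3, the factor activated below TRIF, had 993 and 712 in CD14-deficient LPS cells and 507 and 576 in wild-type LPS cells, 0.64 ± 0.23 (adjusted p = 0.143). Ticam1 (TRIF), Ticam2 and Traf3 are not analysed here. Going the other way, Tyk2, the receptor kinase, had 997 and 720 in CD14-deficient LPS cells and 309 and 277 in wild-type LPS cells, and was higher by 1.53 ± 0.21 (adjusted p = 0.0247). Irf5, which acts below MyD88, was higher by 1.00 ± 0.17 (adjusted p = 0.037). Ptpn6, the phosphatase SHP-1, was higher by 1.06 ± 0.17 (adjusted p = 0.0309), and it was far below its unstimulated values on all stimulated arrays. With thapsigargin in CD14-deficient cells, Stat2 and Irf7 rose and Tyk2 and Sting1, the adaptor of DNA sensing, fell, with a median of -0.22 over the 27. Of 17 other interferon-stimulated genes tested, Irgm1 and Igtp, GTPases that guard against intracellular pathogens, fell by 1.60 ± 0.18 (adjusted p = 0.0173) and 1.24 ± 0.23 (adjusted p = 0.0442) without CD14 and 15 did not pass, with a median of -0.45. Irgm1 and Igtp rose with thapsigargin in CD14-deficient cells by 1.29 ± 0.18 (adjusted p = 0.0195) and 1.60 ± 0.23 (adjusted p = 0.0212).

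**Figure D5:**
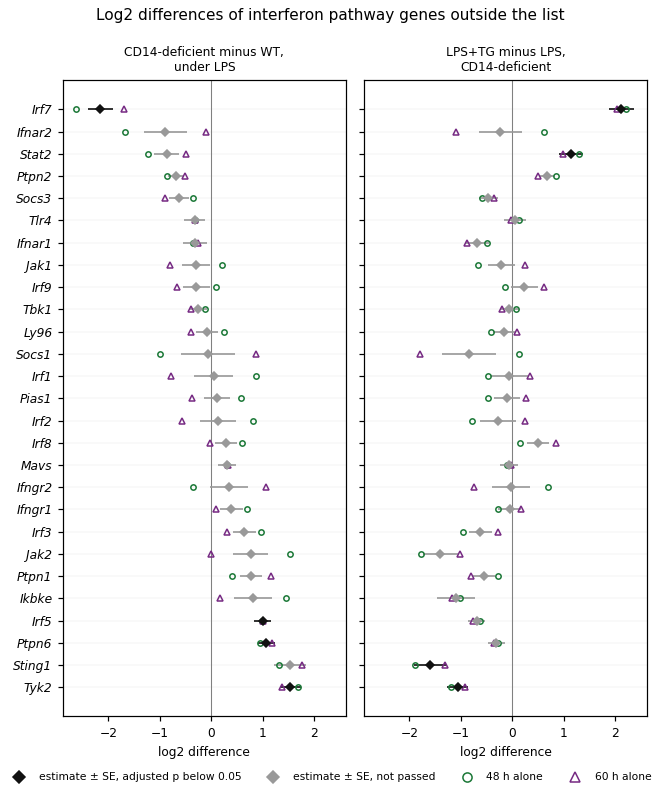
Log2 differences of the 27 tested pathway genes (rows) between the genotypes under LPS (left) and with thapsigargin in CD14-deficient cells (right), with the limma estimate and its standard error as a diamond, black where the adjusted p is below 0.05, and 48 h (circle) and 60 h (triangle) alone. Irf7 stands at the top with -2.16 on the left and 2.11 on the right, and Tyk2 at the bottom with 1.53 and -1.06.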

How the data were processed

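The deposited values are 1 array intensity per probe set, a linear signal that the authors computed with MAS5, per the submitters' processing notes; no version or scaling target is given there. As deposited, the arrays had 2% trimmed means between 444 and 553. Each was scaled to 509, lower signals were lifted to a floor at the 25th percentile of all values (13.4), and log2 was taken. A gene was its brightest single-gene probe set, kept when 2 or more of the 10 arrays exceeded the median of all values (99.2). 691 probe sets with several symbols and 1606 with none were left out.

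All arrays entered 1 limma 3.58.1 model (R 4.3.3) with 6 genotype and treatment levels and a 60 h term, 3 residual and 2.95 prior degrees of freedom, and two-sided p-values adjusted by Benjamini-Hochberg over 7474 genes, threshold 0.05. Errors after ± are standard errors. The script was tested on simulated data. With 1 array per condition the few arrays limit precision. The members, the pathway lists and the cell markers were chosen with earlier results of these data known. All members are named, with every array's value for up to 4 per role group with the largest difference between genotypes under LPS and for those of opposite sign. Of the pathway, interferon beta, its receptor, Stat2, Irf9, Irf3 and Irf7 are named, and the 3 others with the smallest p between genotypes. Alternatives were other scalings, filters, a pseudocount of 16, second probe sets, no trend, no time term and leaving out arrays.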

Additional observations from a re-analysis of the deposited data

Results flagged for a closer look

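Thapsigargin added to LPS moved 3 of the 30 members one way at both times in CD14-deficient cells and the other way at both times in wild-type cells, which is 10% of the members against 12.8% of all genes. The difference of the log2 responses, CD14-deficient minus wild type, was -2.16 for Mx1 (limma, adjusted p = 0.275), -0.93 for Eif2ak2 (adjusted p = 0.359) and 2.88 for Ifi204 (adjusted p = 0.184), and none passed. Mx1 shifted by -2.00 and -0.23 at 48 and 60 h in CD14-deficient cells, against 1.33 and 0.76 in wild-type cells. Ifi204 shifted by 2.77 and 1.99 in CD14-deficient cells, against -0.91 and -0.09 in wild-type cells.

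Relative to the unstimulated array, LPS arrays moved in such opposite ways in 8 members, 26.7% against 9.21% of all genes, each lower than unstimulated in CD14-deficient cells and higher in wild-type cells. The differences of the responses, CD14-deficient minus wild type, were -2.92 for Ifit2, -3.26 for Ifit3, -1.78 for Oas1a, -2.35 for Oas3, -3.07 for Rsad2, -3.39 for Cmpk2, -3.42 for Ifi204 and -1.33 for Rtp4. None of these passed: the smallest adjusted p among the members was 0.404, and by limma 0 of 7474 genes passed, with 613 at an unadjusted p below 0.05. Both times of a genotype share 1 unstimulated array, so 1 high or low unstimulated value moves both. The steps below unstimulated cells were small for Oas3, at -0.14 and -0.07, and largest for Ifit2, at -2.52 and -1.44.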

How the results depend on the processing

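Between the genotypes under LPS the count of members that fell, 19, was 0 with no filter on low signals and from 0 to 25 with 1 array left out. For thapsigargin in CD14-deficient cells the 18 became 0 with no filter and 0 to 23 with 1 array left out. For LPS in wild-type cells the 18 became 9 with no filter. It was lower without any 1 wild-type LPS or thapsigargin array and higher without either CD14-deficient LPS array. The members' median ran from 1.357 to 1.765 with 1 array left out. Without the 2 arrays of lowest 18S signal, an alternative chosen after seeing the data, the median was 1.58. For LPS in CD14-deficient cells the 1 became 0 with no filter or no time term and 0 to 6 with 1 array left out. The counts of 0 became 0 to 8 for thapsigargin in wild-type cells, 0 to 18 for the difference of the thapsigargin effects, 0 to 2 between genotypes with thapsigargin and 0 to 3 against wild-type LPS cells. Each left-out array lowers the residual degrees of freedom. Other scalings, a stricter filter, the pseudocount, second probe sets and no intensity trend kept every count within 1.5 times. Of the 28 members in the run with second probe sets only 7 had a second set past the filter. The others kept their single set, so that run could change little. Unscaled values moved the median of all genes by at most 0.135 (to 0.162, LPS in CD14-deficient cells), where the members' median was 0.22. Single members were followed through the alternatives between genotypes under LPS and with thapsigargin in CD14-deficient cells, where signs reversed only for Eif2ak2 and Dhx58. Eif2ak2 between genotypes was -0.033 after quantile normalization, -0.065 by its second probe set and -0.205 to 0.292 with 1 array left out, and with thapsigargin it was 0.044 by its second probe set. Dhx58 with thapsigargin was -0.149 to 0.051 with 1 array left out and 0.026 without the 2 arrays of lowest 18S signal. No paired analysis was possible because the labels give no replicate numbers; arrays of 1 harvest time are tied by the 60 h term, without which the counts were 18, 16, 15 and 0 in the first 4 comparisons above.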
